A study of Mus musculus with 12 samples.

Results

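The comparison set 2 clones of 1 engineered mouse embryonic stem cell line side by side: synHPRT1R clone 1 and synHPRT1R clone 2, each with 3 ATAC-seq libraries, which are 6 of the 12 libraries of the series. The 6 were chosen by their titles, and their peak lists were merged on chromosomes 1 to 19 into 76683 regions. Both clones are BL6xCAST cells, a cross of C57BL/6 and CAST mice, and both carry synHPRT1R integrated on chromosome X, a synthetic locus made from the reversed sequence of human HPRT1. They share genotype, construct and culture, and the labels give no difference between them other than the clone. The culture medium, on gelatin, was mainly 2i medium (with the MEK inhibitor PD0325901 and the GSK3 inhibitor CHIR99021) plus LIF, with a smaller part of serum medium. The other 6 libraries come from cells with synHPRT1 in place of synHPRT1R, the same locus in its native order, again as 2 clones with 3 libraries each. The series explores the accessibility of the synthetic sequences against the mouse genome around them, and the 2 clones of 1 design give the spread between isolates over that genome. Each clone is 1 line. Nothing in the labels says that its 3 libraries were grown as separate cultures, so every p-value below reflects only library-to-library spread, which may be technical.

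ATAC-seq uses the Tn5 transposase to insert sequencing adapters where DNA is free of nucleosomes, so peaks mark promoters, enhancers and other open sites. In embryonic stem cells most promoters with CpG islands are open whether or not their gene is active, while distal sites differ more between cell states. A clone descends from 1 cell, so its libraries share whatever that cell carried. A peak list also omits weak sites at limited depth, so a site that is not listed is not shown to be closed. Each peak has a fold, the ratio of its summit to the local background, which the authors' peak caller gave. Folds are compared as percentiles within their own list, where 100 is the strongest peak, and a fold itself is given only to describe a peak.

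The libraries of clone 1 listed 58099, 52122 and 41737 peaks, and those of clone 2 listed 45904, 45731 and 44693. The clones overlapped, and the difference of 5210 peaks was smaller than the spread within clone 1 (two-sided exact permutation p = 0.4, where 0.1 is the smallest p that 3 against 3 libraries allow). It was 9668 without replicate 3 of clone 1, when the clones no longer overlapped, and 1487 without replicate 1. A background pileup recovered from the lists, a stand-in for depth, was 1.98 to 2.88 reads in clone 1 and 2.01 to 2.79 in clone 2 (exact permutation p = 0.7). The median peak was wider in clone 1, at 471, 478 and 462 bp against 460, 453 and 458 bp, with no overlap (exact permutation p = 0.1). All 6 lists held a peak within 1 kb of an end of Nanog and Sox2, which encode core pluripotency factors, and 3 of 6 did so for Pou5f1, the gene of Oct4, whose ends had a peak within 2 kb in all 6. None held a peak at the mouse Hprt gene. Among 13 autosomal fibroblast and feeder genes, 4 had end peaks in all 6 lists and 4 had them in no list, against 0 and 9 of 10 genes taken as silent in these cells. Over all 20661 autosomal protein-coding genes the shares were 52.5% in all 6 lists and 32.1% in none, so the feeder genes did not stand above genes at large.

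The 5 promoters below, chosen after the values were seen, are examples of the sequences at which the clones were separated. Each is from a gene whose promoter window held a peak in all 3 libraries of 1 clone and in no library of the other, in the deposited lists and again after all lists were cut to the same length. When peaks within 1 kb of either gene end were counted instead, Sel1l2 and Galk1 were again separated in both kinds of list. Kmt2d, Nab2 and Ifi211 were not. They are the 250 bases before the annotated start, read 5′ to 3′ on the strand of the gene (RefSeq, GRCm38.p6). Capitals mark a GC box (GGGCGG or CCGCCC, on either strand), a CCAAT box (CCAAT or ATTGG) or a TATA box (TATAAA or TTTATA). Sel1l2 (chr2:140389711-140389960, minus strand), Kmt2d (chr15:98871206-98871455, minus strand) and Galk1 (chr11:116012720-116012969, minus strand) were listed by clone 1. Nab2 (chr10:127666704-127666953, minus strand) and Ifi211 (chr1:173913047-173913296, minus strand) were listed by clone 2.
Sel1l2: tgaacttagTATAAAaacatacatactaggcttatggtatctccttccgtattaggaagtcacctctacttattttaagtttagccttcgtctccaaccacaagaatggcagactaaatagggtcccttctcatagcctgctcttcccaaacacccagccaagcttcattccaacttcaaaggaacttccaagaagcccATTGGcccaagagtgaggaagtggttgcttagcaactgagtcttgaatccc
Kmt2d: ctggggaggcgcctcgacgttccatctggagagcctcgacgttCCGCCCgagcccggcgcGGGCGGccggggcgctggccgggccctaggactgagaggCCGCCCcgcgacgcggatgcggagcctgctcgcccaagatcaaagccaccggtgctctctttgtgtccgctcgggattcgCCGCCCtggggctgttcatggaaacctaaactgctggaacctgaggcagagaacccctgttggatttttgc
Galk1: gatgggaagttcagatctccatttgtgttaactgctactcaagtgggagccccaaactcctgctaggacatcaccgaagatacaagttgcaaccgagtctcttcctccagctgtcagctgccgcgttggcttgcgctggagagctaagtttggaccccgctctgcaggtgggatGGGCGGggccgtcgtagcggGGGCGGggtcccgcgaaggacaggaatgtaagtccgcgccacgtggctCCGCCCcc
Nab2: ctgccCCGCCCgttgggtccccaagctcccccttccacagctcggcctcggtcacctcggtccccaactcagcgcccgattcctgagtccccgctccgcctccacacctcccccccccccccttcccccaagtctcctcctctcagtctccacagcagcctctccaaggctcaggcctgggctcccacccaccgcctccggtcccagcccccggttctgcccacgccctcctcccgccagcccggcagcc
Ifi211: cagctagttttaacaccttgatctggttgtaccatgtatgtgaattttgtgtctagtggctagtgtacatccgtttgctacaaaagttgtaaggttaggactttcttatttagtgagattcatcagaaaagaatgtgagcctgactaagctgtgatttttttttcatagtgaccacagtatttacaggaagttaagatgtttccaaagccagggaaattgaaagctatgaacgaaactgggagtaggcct

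Most merged regions were found in both clones. Of the 76683, 49490 (64.5%) were listed at least once in each clone, 25775 (33.6%) by all 6 libraries and 22469 (29.3%) by a single library. A total of 580 regions (0.756% of those merged) were listed by all 3 libraries of clone 1 and none of clone 2, and 138 (0.18%) by all 3 of clone 2 and none of clone 1. These 718 are among 6552 regions that any 3 of the 6 libraries listed. The excess on the side of clone 1 was much smaller in lists of equal length. When each list was cut to its 40391 autosomal peaks with the highest −log10 p-values, the length of the shortest list, 285 regions (0.45% of 63322) were listed by clone 1 alone and 269 (0.425%) by clone 2 alone. Lists cut at a −log10 q-value of 5 or more kept the longer lists longer, and gave 455 (0.941% of 48376) and 49 (0.101%). Counting a library only where its peaks covered at least 50% of the region gave 787 (1.03%) and 167 (0.218%). Leaving out 1 library loosened the rule to 2 of 2 in its clone and gave 1014 to 2411 regions for clone 1 and 195 to 492 for clone 2. The highest count for clone 1 and the lowest for clone 2 came without replicate 3 of clone 1, the library with the shortest list.

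**Figure D1:**
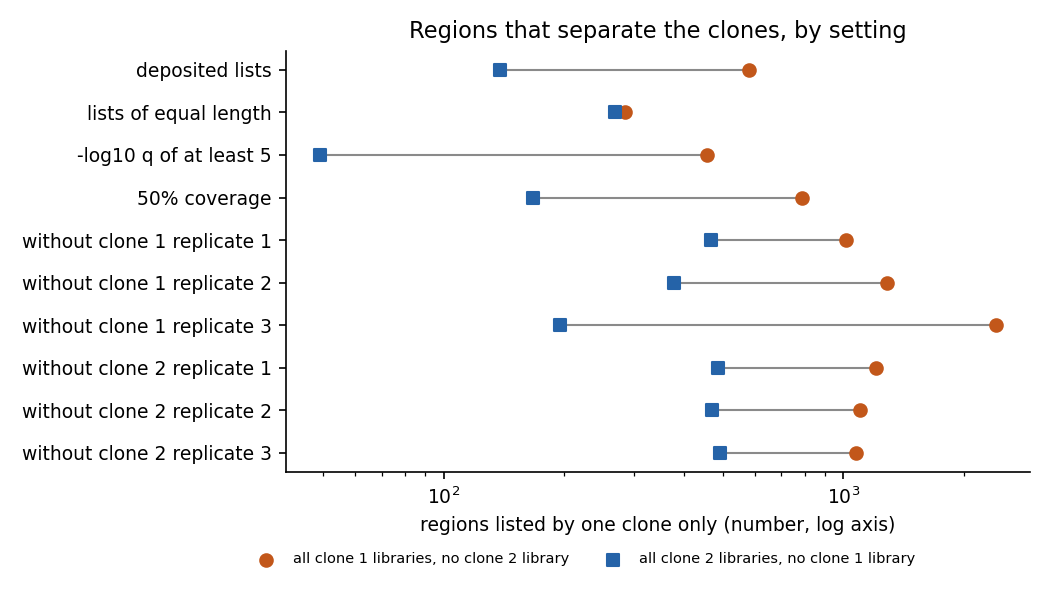
Number of regions listed by all libraries of 1 clone and none of the other (x axis, log scale) under each setting (y axis). Orange circles are clone 1 and blue squares clone 2. The 2 counts lie far apart in the deposited lists (580 and 138) and almost meet in lists of equal length (285 and 269).

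Cutting the lists changed which regions were separated. Of the 580 regions of clone 1, 208 (35.9%) were separated again in lists of equal length, which is 73.0% of the 285 found there. Of the 138 regions of clone 2, 81 (58.7%) were separated again, 30.1% of the 269. The 20 regions described next come from these 208 and 81.

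The separated regions were weak peaks. Their median percentile of fold was 26.6 for clone 1 and 21.8 for clone 2, against 69.9 for regions listed by all 6 libraries and 25.6 for regions listed by any 3 of the 6. In clone 1, 62 of the 580 separated regions had a median percentile above 50 and 5 above 75. The same counts for clone 2 were 9 and 0 of 138. Separated regions were 491 bp (clone 1) and 444 bp (clone 2) wide at the median, close to the 477 bp of all regions listed by 3 libraries and narrower than the 940 bp of those listed by all 6. Of the clone 1 regions 42, and of the clone 2 regions 8, lay within 500 bp of a peak of the other clone.

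By place, too, they resembled other regions found in 3 libraries. A gene end (within 1 kb of the outermost annotated start or end of a protein-coding gene) held 67 of the 580 clone 1 regions (11.6%) and 14 of the 138 clone 2 regions (10.1%). The share was 11.6% among all regions listed by 3 libraries and 39.0% among those listed by all 6. A further 248 clone 1 regions (42.8%) and 65 clone 2 regions (47.1%) lay within a gene, and 265 (45.7%) and 59 (42.8%) lay between genes.

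The strongest region separating the clones lay within Fer (chr17:64047224-64047668), which encodes a cytoplasmic tyrosine kinase. Its peak stood at the 96.9, 99.2 and 78.7 percentiles of fold in the 3 libraries of clone 1, with folds of 10.6, 12.6 and 7.05. No clone 2 library listed it. Its −log10 q-value was at least 11.1 in each, far above the 1.30 at which the lists end. Among the synHPRT1 libraries the split ran within the clones: replicate 1 of clone 1 (98.4 percentile) and replicate 2 of clone 2 (99.7 percentile) listed it, and the other 4 did not. Wherever a list held the peak, it stood at the 78.7 percentile or higher.

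A region 39.4 kb from Nfkb1 (chr3:135731384-135731592), the gene of the NF-κB subunit p50, was at the 94.5, 87.2 and 80.1 percentiles in clone 1. It was listed by 5 of the 6 synHPRT1 libraries, so clone 2 stood apart from the other lines here. The start of Sel1l2 (chr2:140389668-140390000), a relative of the Sel1l adaptor of protein quality control in the endoplasmic reticulum, was at the 88.3, 85.1 and 51.4 percentiles. All 6 synHPRT1 libraries listed it as well, at percentiles of 68.8 to 92.1. The same held within Pstpip2 (chr18:77879150-77879590), which encodes an adaptor that binds phosphatases and the actin skeleton, with percentiles of 83.6, 94.5 and 82.1 in clone 1 and a peak in 6 of 6 synHPRT1 libraries. It also held for a region 148 kb from Gm47655 (chr13:70155569-70156173), with 75.8, 52.2 and 87.5. At these 3 regions clone 2 was the only one of the 4 clones in the series without a peak. That was not particular to them, since every region named for clone 1 had a peak in some library of each synHPRT1 clone.

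The other 5 regions named for clone 1 had median percentiles between 70.4 and 74.8. They lay within Smim31, within Scyl3 (a pseudokinase), within Pdzrn4 (a RING finger protein), 44.8 kb from Rbm15 (an RNA-binding protein of the m6A methylation machinery) and 19.2 kb from Cep70 (a centrosome protein). Each had a peak in 3 to 5 synHPRT1 libraries. In all 5 replicate 2 of clone 1 was lowest, at percentiles of 33.9 (Scyl3) to 56.8 (Smim31 and Pdzrn4).

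The regions of clone 2 were weaker. The strongest lay 23.6 kb from Atg7 (chr6:114619176-114619499), the gene of the E1-like enzyme of autophagy, at the 74.1, 48.7 and 81.8 percentiles, and 3 synHPRT1 libraries listed it. A region 6.91 kb from Rad23b (chr4:55342566-55343131), a ubiquitin receptor of nucleotide excision repair, was at 25.6, 78.2 and 63.3. Within Mbp (chr18:82477368-82477649), which encodes myelin basic protein, the values were 23.0, 66.4 and 55.9. In both of these replicate 1 was well below the other two.

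The other 7 regions of clone 2 had median percentiles of 45.9 to 52.5. They lay within Sntg1 (a syntrophin), Efl1 (a GTPase of 60S ribosome maturation), Slc5a8 (a monocarboxylate transporter), Tnnt1 (troponin T of slow muscle), Ptprm (a receptor tyrosine phosphatase) and Prorp (the mitochondrial RNase P nuclease), and 393 bp from an end of Vdac1 (a channel of the mitochondrial outer membrane). All 6 synHPRT1 libraries listed the Sntg1 region. The region within Prorp (chr12:55315198-55315498) was the only one of the 20 named regions with no peak in any synHPRT1 library. Its percentiles in clone 2 were 45.9, 61.1 and 21.4.

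**Figure D2:**
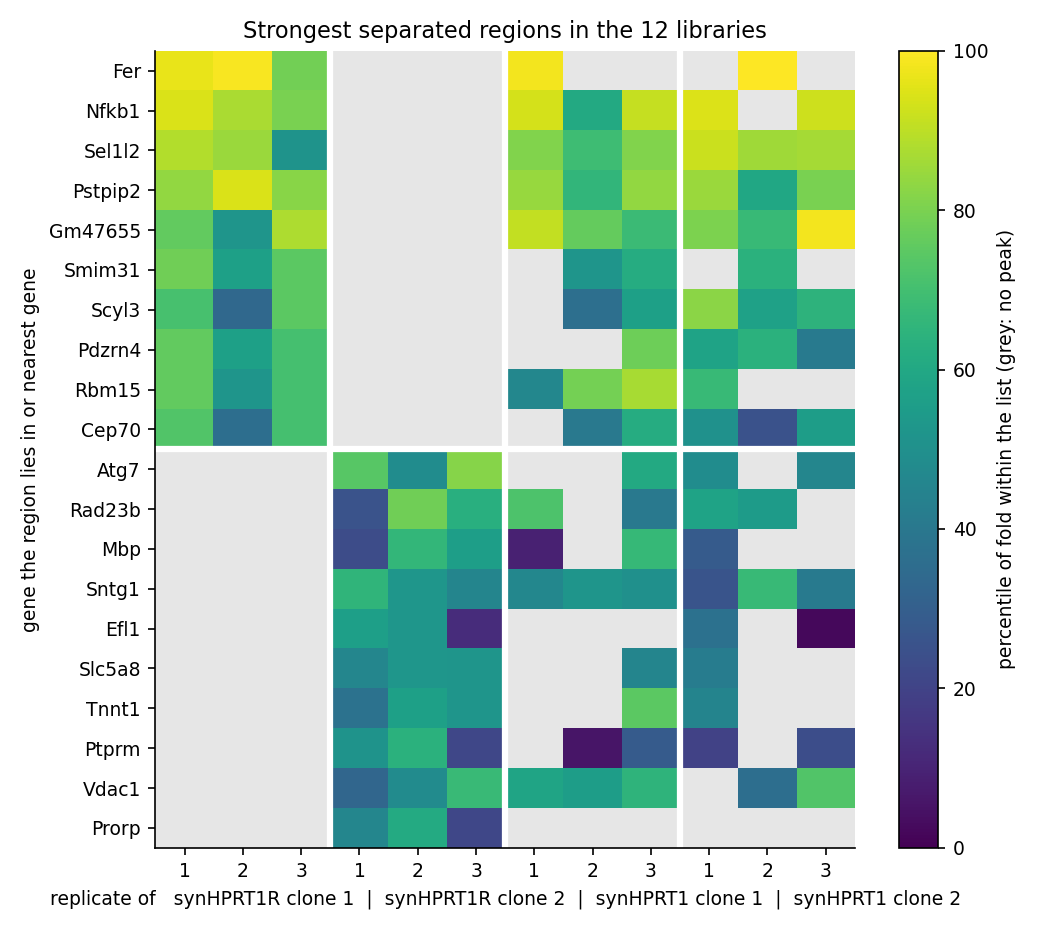
Percentile of fold (colour, 0 to 100) of the 10 strongest regions separating each clone (rows, by gene) in the 12 libraries (columns, 3 replicates per clone). Grey means no peak. The right-hand blocks, which the rule did not use, hold peaks at 19 of the 20 regions, with Prorp as the exception and Fer listed there by 2 libraries.

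The synHPRT1 libraries, which played no part in choosing the regions, listed most of them. At least 1 of the 6 synHPRT1 libraries had a peak at 94.7% of the clone 1 regions and 89.9% of the clone 2 regions, against 94.4% of all regions listed by any 3 synHPRT1R libraries. The mean number of synHPRT1 libraries was 3.12 for clone 1 regions, 2.71 for clone 2 regions and 3.07 for regions in any 3 libraries. At these same regions, with the synHPRT1 lists cut to the length of the shortest of the 12 lists, the means were 1.88, 1.47 and 1.75. A total of 31 clone 1 regions and 14 clone 2 regions were listed by no synHPRT1 library, and 37 and 6 by all 6. No test was made of these differences.

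**Figure D3:**
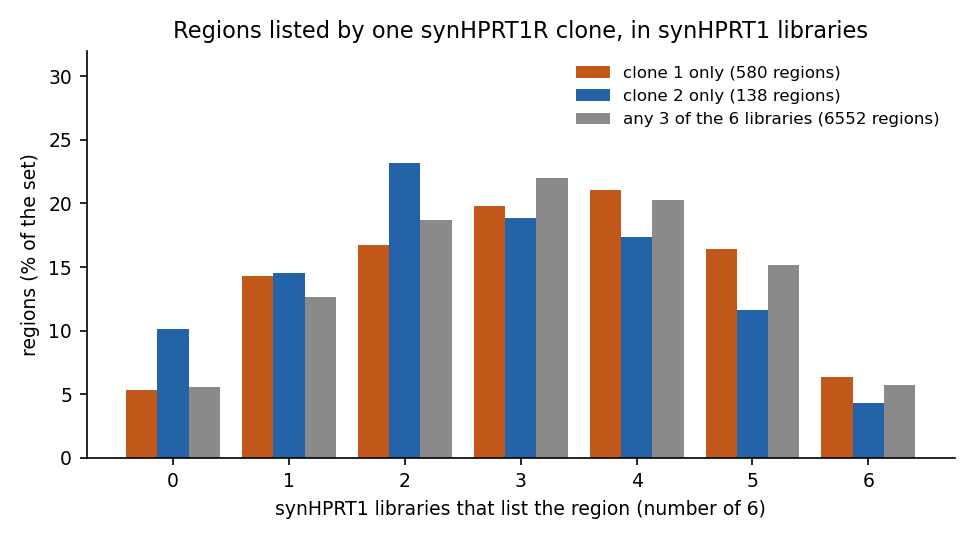
Share of regions (y axis, % of each set) by the number of the 6 synHPRT1 libraries that list them (x axis), for regions of clone 1 only (orange), clone 2 only (blue) and regions listed by any 3 of the 6 synHPRT1R libraries (grey). All 3 sets spread over the whole range, with means of 3.12, 2.71 and 3.07 libraries.

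At the level of genes the clones differed little. Of 20661 protein-coding genes on the autosomes, 10848 were listed within 1 kb of an end by all 6 libraries and 6641 by none. In the deposited lists 50 genes (0.242%) had one in all of clone 1 and none of clone 2, and 4 (0.0194%) the reverse. In lists of equal length the counts were 27 (0.131%) and 17 (0.0823%). Peaks at a −log10 q-value of 5 or more gave 68 (0.329%) and 8 (0.0387%). Only 18 genes of clone 1 and 1 gene of clone 2 were separated in both the deposited lists and the lists of equal length.

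The 12 highest of the 18 clone 1 genes were Sel1l2, Rrh (peropsin, an opsin of the retinal pigment epithelium), Btn2a2 (a butyrophilin), Med9 (a subunit of the Mediator complex), Hoga1 (an aldolase of hydroxyproline breakdown), Vwa3b, Qrfpr (the receptor of the neuropeptide QRFP), Slc1a6 (a glutamate transporter), Slc6a4 (the serotonin transporter), Esrp1 (a splicing regulator of epithelial cells), Galk1 (galactokinase) and Cntn2 (an axonal adhesion protein). The other 6 were Emx1, Prmt8, 2310011J03Rik, Hspb3, Hand1 and Plekhg5, with median percentiles of 26.0 to 33.8.

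Rrh was the highest of these after Sel1l2, at the 72.9, 60.9 and 59.8 percentiles in clone 1. Hoga1 was at 66.5, 42.0 and 53.7, and Btn2a2 at 60.6, 39.0 and 56.3. In Med9 the values were 54.3, 60.9 and 13.3, so replicate 3 was near the foot of its list. The same library was lowest of the clone in Vwa3b (13.3), Slc1a6 (13.3), Esrp1 (7.77) and Cntn2 (9.56). All 6 synHPRT1 libraries had a peak near the ends of Med9, Esrp1 and Galk1, 5 at Rrh, Hoga1 and Qrfpr, and 2 at Slc6a4. The gene of clone 2 was Cd93, which encodes a receptor of endothelial and myeloid cells, at 33.0, 52.5 and 21.4 in clone 2 and with a peak in 3 synHPRT1 libraries.

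Promoter windows run from 250 bases before to 50 bases after an annotated start. For the 16456 genes with such a sequence they gave similarly low shares, partly at other genes. A peak was in all of clone 1 and none of clone 2 at 40 genes (0.243%), and the reverse at 9 (0.0547%). Lists of equal length gave 25 (0.152%) and 20 (0.122%), and 20 and 3 genes were separated in both. The 3 genes of clone 2 were Nab2, a corepressor of EGR transcription factors, Ifi211, an interferon-inducible gene, and Slitrk3, a synaptic adhesion gene. Nab2 was at the 49.5, 17.1 and 25.7 percentiles in clone 2, Slitrk3 at 18.2, 52.5 and 30.0, and Ifi211 at 11.1, 13.1 and 45.5.

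Among the 20 clone 1 promoters, Sel1l2 had the highest median percentile, followed by Gm13276 at 79.0, 69.8 and 61.7. Nt5c1a, which encodes a cytosolic nucleotidase, was at 66.5, 68.1 and 53.7. Kmt2d, the gene of a histone H3 lysine 4 methyltransferase, was at 58.7, 74.1 and 31.0, and Pus3, a pseudouridine synthase gene, at 57.4, 58.8 and 36.0. In each of these 5 replicate 3 was the lowest of the clone. The other 15 had median percentiles of 18.2 to 56.3, and the printed Galk1 was at 38.0, 64.7 and 31.0.

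The printed promoters differ widely in sequence. Kmt2d has 4 GC boxes and Galk1 has 3 in the 250 bases shown, Nab2 has 1, and Ifi211 has none of the 3 motifs. Sel1l2 has 1 CCAAT box and 1 TATA box and no GC box. Over the whole set of 20084 promoter windows, 47.0% held a GC box, 38.1% a CCAAT box and 12.7% a TATA box. Windows with a peak in all 6 libraries held a GC box in 71.2% of cases, and windows with none in 14.1%. The 51 windows separated for clone 1 held one in 39.2% and the 13 for clone 2 in 53.8%, against 56.9% of windows with a peak in 1 to 5 libraries. The ratio of observed to expected CpG had a median of 0.540 in both separated sets and 0.645 in windows with a peak in 1 to 5 libraries. It was 0.804 in windows with a peak in all 6 and 0.192 in windows with a peak in none. Motif matches describe the letters only.

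The gene lists drawn up around pluripotency, lineage and culture held 1 separated gene. Hand1, a bHLH factor of heart mesoderm and trophoblast, stands in the mesoderm and trophoblast lists. It had a peak near an end in 3 of 3 clone 1 libraries, at the 40.3, 26.7 and 8.78 percentiles, and in none of clone 2, and 3 synHPRT1 libraries listed it. None of the 21 autosomal genes of naive and general pluripotency was separated. In all 6 libraries 13 of the 21 had a peak, against 52.5% of all autosomal protein-coding genes. Lin28a, an RNA-binding protein that blocks let-7 maturation, had a peak in 3 libraries of clone 1 and 1 of clone 2. In lists of equal length these were 2 and 1. None of 20 genes of 2i and LIF signalling, 16 imprinted genes, 13 p53 targets, 11 germline genes or 10 genes of the two-cell-like state was separated. The 10 last named lacked end peaks in every library, as did 32.1% of all autosomal protein-coding genes. Also without a separated gene were the lists of formative and primed pluripotency (10 genes), neural and ectoderm (12), endoderm (12), fibroblast and feeder (13), silent (10), housekeeping (13) and large neuronal and adhesion genes (19). Read against the 0.242% and 0.0194% of all genes, these counts single out no list.

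No greater sharing was detected within clones than between them. In lists of equal length, 2 libraries of 1 clone shared 64.7% ± 1.87 of their pooled regions (SD over 6 pairs) and libraries of different clones 64.6% ± 1.87 (SD over 9 pairs), a difference smaller than the spread (two-sided exact permutation p = 0.8 over 10 splits). The 10000 strongest peaks gave 60.7% and 60.4% (exact permutation p = 0.3). Normal scores of the rank of fold, over the 25775 regions in all 6 lists, correlated with a mean of 0.752 within clones (0.738 to 0.786) and 0.749 between clones (0.722 to 0.773). These correlations are across regions, which are not independent replicates.

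Ranks of fold at regions common to all 6 lists gave no call. Limma with Benjamini-Hochberg adjustment found 0 of 25775 regions (0%) past an adjusted p of 0.05 in either direction, and the smallest adjusted p was 0.911. At an unadjusted p under 0.05 there were 719 regions higher in clone 1 (2.79%) and 635 higher in clone 2 (2.46%), 5.25% together. In lists of equal length limma called 0 of 23898, with 708 (2.96%) and 587 (2.46%) at an unadjusted p under 0.05. Over the other settings the smallest adjusted p by limma ran from 0.789 to 0.972 and no region was called. The median absolute difference was 0.266 score units against a median standard error of 0.362.

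The regions with the smallest p are therefore given as values. Foxk2, a forkhead factor, had the lowest: at its gene end (chr11:121259084-121260046) the percentiles were 44.0, 36.1 and 5.81 in clone 1 and 61.2, 87.9 and 87.3 in clone 2, a difference of −2.00 ± 0.407 score units (SE, limma adjusted p = 0.911). A region within Thrb, the gene of thyroid hormone receptor β (chr14:17741050-17741706), had 4.10, 29.7 and 5.81 in clone 1 and 56.6, 68.7 and 45.5 in clone 2. Regions 59.0 kb from E2f3 (a cell cycle transcription factor), 15.8 kb from Gm31714 and 457 kb from Bcl11a (a zinc finger repressor) were also higher in clone 2, with differences (clone 1 minus clone 2) of −1.54, −1.37 and −1.83 score units.

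In the other direction, a region within Cacna1b (chr2:24678670-24679691), which encodes the pore of N-type calcium channels, stood at 72.9, 74.1 and 70.4 in clone 1 and 5.30, 21.8 and 38.1 in clone 2. A region 13.6 kb from Fgfr4 (chr13:55182336-55182959), an FGF receptor, was at 52.2, 63.5 and 68.0 in clone 1 and 2.77, 5.81 and 25.0 in clone 2. Cdh2, the gene of N-cadherin, had a gene end region at 76.8, 75.6 and 84.5 against 22.0, 18.6 and 48.7. These regions were picked for their small p, so the lack of overlap between the clones in them follows from the choice. The remaining 2 regions lay at an end of Ptpra (a receptor tyrosine phosphatase) and 13.6 kb from Zfp956, with differences of 1.52 ± 0.355 and 1.34 ± 0.317 score units (SE, limma adjusted p = 0.911 for both).

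Among the chromosomes, 19 showed the widest difference between the clones. Over its 607 regions listed by all 6 libraries, the mean normal score was −0.058, −0.095 and −0.091 in clone 1 and −0.152, −0.148 and −0.161 in clone 2. The clones did not overlap, and the difference was 0.0719 score units (two-sided exact permutation p = 0.1, the smallest possible, and 0.543 after Benjamini-Hochberg adjustment over 19 chromosomes). By median, chromosome 19 regions stood at the 48.2 ± 0.985 percentile of the shared ranks in clone 1 and 44.2 ± 1.96 in clone 2 (SD, n = 3). Leaving out any 1 library gave differences of 0.0569 to 0.0789. A limma fit over the 19 chromosome means, chosen after the values were seen, gave 0.0719 ± 0.0118 (SE, adjusted p = 8.87e-07), and chromosome 19 was the only 1 of 19 (5.26%) past 0.05. The scores of a library sum to about 0, so the chromosomes are not independent of each other in that fit. It also gave every chromosome the same SE, pooled over all 19. Its small p therefore rests on that pooling and not on the libraries of chromosome 19 alone.

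Chromosome 19 held 2.48% ± 0.0145 of the autosomal peaks of a library in clone 1 and 2.36% ± 0.0187 in clone 2 (SD, n = 3, exact permutation p = 0.1). By this share 7 of 19 chromosomes (36.8%) had clones that did not overlap, so the share alone does not set chromosome 19 apart. Of its 1869 merged regions 23 were listed by clone 1 alone (1.23%) and 2 by clone 2 alone (0.107%). The shares over all merged regions were 0.756% and 0.18%, and all 19 chromosomes had more regions of clone 1 alone than of clone 2 alone in the deposited lists. In lists of equal length chromosome 19 had 16 and 7 of 1507 regions, against 285 (0.45%) and 269 (0.425%) of 63322 over all autosomes. Of genes already named, Hoga1 lies on it. 

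The shift was not confined to 1 kind of place, and most windows along the chromosome had the same sign. At the 293 gene ends the mean score was 0.0474 ± 0.0191 in clone 1 and 0.0064 ± 0.0216 in clone 2, at 159 regions within genes −0.238 ± 0.0469 and −0.339 ± 0.0292, and at 155 regions between genes −0.165 ± 0.0363 and −0.265 ± 0.0325 (SD, n = 3). The clones did not overlap in any of the 3 (exact permutation p = 0.1 each). In windows of 5 Mb the mean of clone 1 was above that of clone 2 in 12 of 13. The differences in those 12 ran from 0.0271 to 0.148, and the exception was −0.0058. Several were smaller than the SD of a clone, such as 0.0385 against an SD of 0.141 in clone 1 between 5 and 10 Mb. The windows therefore do not show an even spread. The splits by place and by window were chosen after the data were seen.

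**Figure D4:**
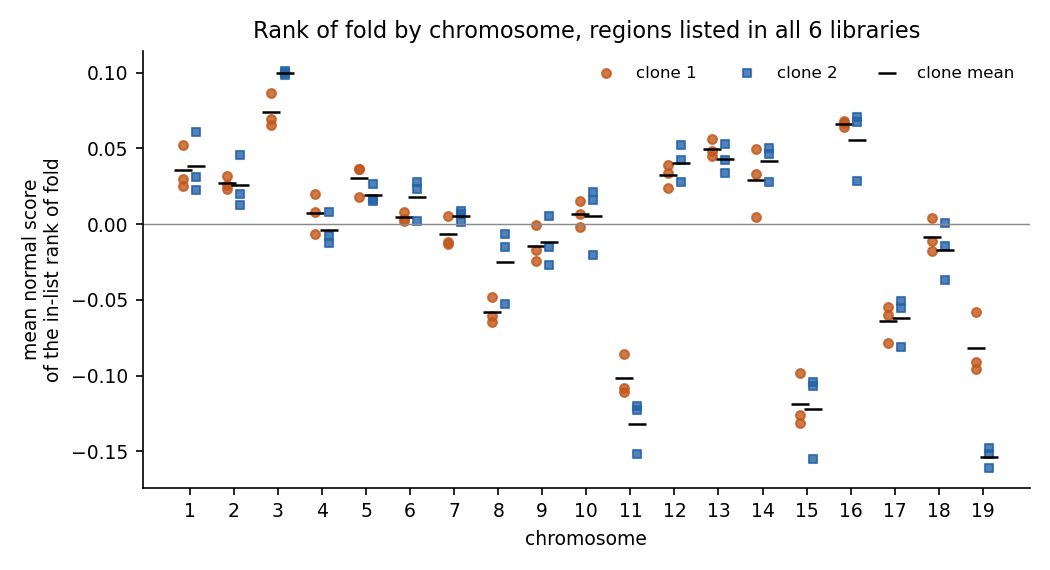
Mean normal score of the in-list rank of fold (y axis) on each autosome (x axis) over regions listed by all 6 libraries. Points are libraries, orange for clone 1 and blue for clone 2, and black bars are clone means. Chromosome 19 shows the widest gap, 0.0719, with no overlap.

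**Figure D5:**
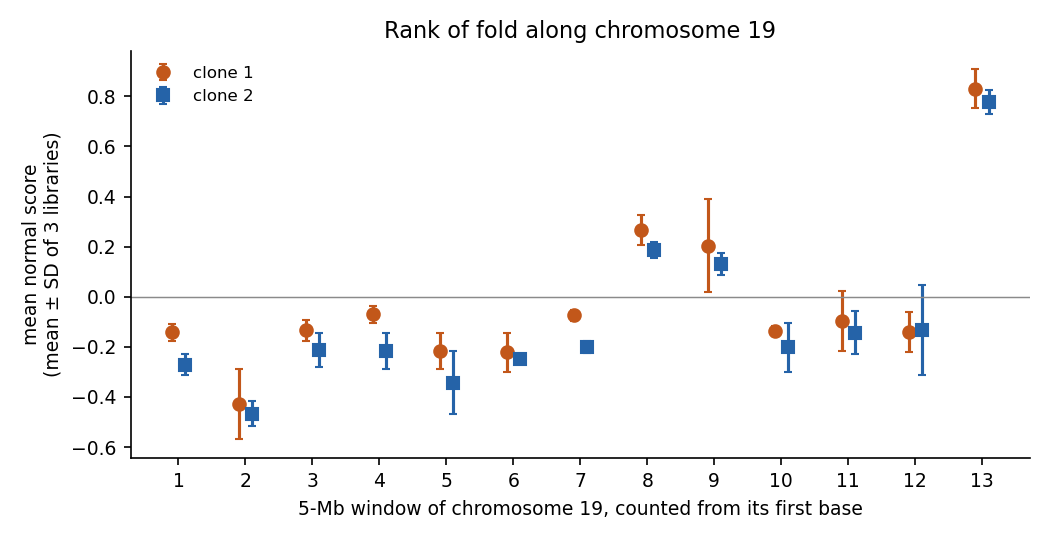
Mean normal score (y axis, mean ± SD of 3 libraries) in the 13 windows of 5 Mb along chromosome 19 (x axis) for clone 1 (orange) and clone 2 (blue). Clone 1 lies above clone 2 in 12 of the windows.

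Set beside the synHPRT1 lines, it was clone 2 that stood lower. In ranks over regions listed by all 12 libraries, the mean score of chromosome 19 was −0.183 ± 0.0064 in synHPRT1R clone 2. It was −0.108 ± 0.0215 in synHPRT1R clone 1, −0.0875 ± 0.0103 in synHPRT1 clone 1 and −0.106 ± 0.0396 in synHPRT1 clone 2 (SD, n = 3 each). Every library of synHPRT1R clone 2 (−0.178 to −0.191) was below all 9 others, the lowest of which was −0.151. Such a gap was not particular to this chromosome or clone. On chromosome 7 every library of synHPRT1 clone 1 (0.0273 to 0.0335) was above all 9 others, the highest of which was 0.0077.

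The other chromosomes differed less. The difference, clone 1 minus clone 2, was 0.0302 on chromosome 11 and −0.0259 on chromosome 3, both without overlap (exact permutation p = 0.1). With chromosome 19 these are the 3 of 19 (15.8%) whose clones did not overlap. It was −0.033 on chromosome 8, −0.0132 on chromosome 6 and 0.0112 on chromosome 4, all with overlap (exact permutation p = 0.2, 0.3 and 0.2). In lists of equal length, of these 6 chromosomes, 3, 6, 8 and 19 had clones that did not overlap (exact permutation p = 0.1 each, with 0.0743 on chromosome 19), and chromosome 11 overlapped (p = 0.2). Leaving out 1 library gave 0.0146 to 0.0355 on chromosome 11, lowest without replicate 1 of clone 2 (exact permutation p = 0.5), and −0.0473 to −0.021 on chromosome 8, nearest to 0 without replicate 2 of clone 2. It gave −0.0196 to −0.0037 on chromosome 6, nearest to 0 without replicate 1 of clone 2, and 0.0054 to 0.0237 on chromosome 4, without replicates 1 and 3 of clone 1. In the limma fit on the deposited lists the adjusted p-values were 0.0817 for chromosome 11, 0.153 for chromosome 3 and 0.0646 for chromosome 8.

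Separated regions did not pile up in single places. Of the windows of 1 Mb that held a merged region, 1908 had no region of clone 1 alone, 440 had 1, 56 had 2, 8 had 3 and 1 had 4. That window (chr4:152000001-153000000) held separated regions at Gpr153, Nphp4 and Tnfrsf25. Of the 8 windows with 3, the named pair, taken for its counts in lists of equal length, was chr9:88000001-89000000 (near Nt5e, Gm2396 and Trim43a) and chr10:78000001-79000000 (near Ilvbl, Rrp1 and Slc1a6). For clone 2 the fullest was chr5:93000001-94000000, with 3 near Ccng2, Septin11 and Sowahb, and 2 of the 6 windows with 2 were chr1:104000001-105000000 (Cdh20) and chr4:54000001-55000000 (Zfp462). These windows count the deposited lists, and fewer of their regions were separated in lists of equal length in 3 of the 6.

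Chromosome X, which carries the construct in both clones, was merged apart from the autosomes. It held 2130 regions, 865 of them in all 6 libraries, 14 in clone 1 alone (0.657%) and 3 in clone 2 alone (0.141%), against 0.756% and 0.18% on the autosomes. Of these, 6 and 2 were separated again in lists of equal length. One, chosen after the values were seen, lay within Diaph2, a formin gene (chrX:130203508-130204282), with folds of 7.33, 5.67 and 5.70 in clone 1. All 6 synHPRT1 libraries listed it, so synHPRT1R clone 2 was again the only clone without it. A region within Il1rapl2, a gene of the interleukin-1 receptor family (chrX:138450029-138450629), had folds of 4.35, 5.41 and 4.03 in clone 1 and was listed by no synHPRT1 library.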

How the data were processed

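ATAC-seq was measured in 12 libraries, of which the 6 of synHPRT1R were compared. Per the submitters' processing notes, the builds were GRCm38 and mm10 and the tools MACS2 2.1.0, Bowtie2 2.2.9, SAMtools 1.9, deepTools 3.5.0 and bcl2fastq 2.20. The handling of Tn5 offsets, duplicates and multi-mapped reads was not given in the sources used here. Peaks were called per library, in 1 deposited narrowPeak list for each. The authors' deposited columns are an integer score, the fold (a ratio of summit to local background), the −log10 p-value, the −log10 q-value and the summit offset. The lowest deposited −log10 q-value was 1.30. Score and offset were not used in any test.

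Lists were merged on 19 autosomes at an overlap of 1 bp. Equal-length lists kept the 40391 peaks with the highest −log10 p. Genes and promoter sequences came from RefSeq tables of GRCm38.p6, which matches the build of the lists. Strand was known only for genes with a promoter sequence, so gene ends cover both ends. Normal scores of the rank of fold were fitted with limma 3.58.1 (R 4.3.3), and p-values were adjusted by Benjamini-Hochberg at 0.05. The fit was also run on simulated scores with known shifts. How small a difference it could call is not reported here, so a lack of calls does not show that the clones are equal. Alternatives covered list length, −log10 q, coverage, column ranked, distance to gene ends, moderation, all 12 libraries and each library left out. Named regions were the 10 per direction with the highest median percentile among those separated in both kinds of list. Named genes were all such genes, or the 12 highest where there were more. Rank regions were the 5 with the smallest p per direction, since none passed. Separated list members, 3 chromosomes and 3 windows of 1 Mb per direction and Pou5f1, Nanog, Sox2 and Hprt were also named. The members, lists and rules were chosen with earlier results of these data known.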

Additional observations from a re-analysis of the deposited data

How the results depend on the processing

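Presence in a list depends on depth and on the q-value limit, and most separated regions were weak. Equal-length lists moved the region counts to 285 and 269 and the gene counts to 27 and 17 for clone 1 and clone 2. At the regions separated in the deposited lists, cutting the synHPRT1 lists moved the mean number of synHPRT1 libraries to 1.88 and 1.47. A −log10 q-value of 5 or more moved the clone 2 counts to 49 regions and 8 genes. Counting gene ends within 500 bp, or the annotated start only, gave 9 genes for clone 2 in each case. Leaving out 1 library in turn gave 1014 to 2411 regions and 69 to 143 genes for clone 1, and 195 to 492 regions and 10 to 35 genes for clone 2, partly because the rule then asks for 2 libraries of a clone. The rank comparison by limma called 0 regions under all settings, the replicate block included (0 called, 1301 at an unadjusted p under 0.05). Equal replicate numbers did not deviate together in rank (correlations of −0.0205, −0.0027 and 0.0063). Ranks leave out depth and list length, so this does not show whether the numbers pair the libraries. The chromosome 19 difference kept its direction in all settings. It passed 0.05 only in limma over the 19 chromosomes (0.0719, adjusted p = 8.87e-07), which was chosen after the data were seen and pooled the SE over chromosomes. In the deposited lists its exact permutation p was 0.1, and 0.543 after Benjamini-Hochberg adjustment. The difference in sharing within and between clones changed sign when 1 library was left out, from −0.538 to 0.729 percentage points, with −0.0507 without replicate 1 and −0.538 without replicate 3 of clone 1.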
